A study of Rattus norvegicus with 2 samples.

Results

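Fibroblast growth factor 21 (Fgf21), hepatocyte growth factor (Hgf), the FGF receptors Fgfr1 to Fgfr4, the FGF co-receptor beta-klotho (Klb), the receptors Egfr and Erbb3 of the epidermal growth factor (EGF) family, and the HGF receptor Met were examined in the liver of rats given olive oil by mouth. The 10 genes were chosen by name as the hepatic growth factor receptors and the FGF axis, and every probe set annotated to exactly 1 of them was used. Of the 10, 9 were among the 14217 genes with a probe set of their own, with 17 of 31042 probe sets, while Klb was not analysed here. The olive oil array held RNA from livers of male rats of the outbred Wistar strain, aged 2 months, that were fasted for 18 h, given 5 ml of olive oil (16 ml per kg) and killed 4 h later. The fasted array held RNA from livers of male Wistar rats of the same age after the same fast with no oil. How many livers each array stands for, and whether the fasted rats waited for the additional 4 h, is not stated in the labels. Each group was a single Affymetrix array, so every difference compares 2 arrays, without a replicate check, a p-value or an error over animals.

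In the liver, FGF21 is a hormone that hepatocytes secrete during fasting and amino acid shortage, and it signals to other tissues through FGFR1 bound to beta-klotho. FGFR4, the main FGF receptor of hepatocytes, also needs beta-klotho, and on it the gut hormone FGF15 (FGF19 in humans) acts to lower bile acid synthesis. EGFR and the kinase-impaired ERBB3 bind EGF-like ligands and neuregulins, and MET binds HGF, which is made by non-parenchymal cells of the liver. All of these receptors feed the RAS-ERK and PI3K pathways and are known for their part in liver growth and regeneration.

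The arrays were of like overall brightness, with a median signal of 44.7 in the olive oil array and 42.5 in the fasted array. Beta-actin, whose 3' signal exceeds its 5' signal more in RNA of lower integrity, had a 3'/5' ratio of 3.20 in the olive oil array and 2.63 in the fasted array. Signals below 12.8 were raised to that floor before the log2 was taken. A gene stood as measured when its brightest probe set had a mean log2 signal at or above the median over the array, which corresponds to a signal of 41.4. Between measured probe sets of the same gene, the pooled standard deviation (SD) of the log2 differences was 0.35 over 2290 genes. It was 0.44 over 751 genes for the dimmer measured probe sets and 0.23 over 853 genes for those above the 75th percentile of signal. This scatter covers probes only. The markers of hepatocytes, the labelled tissue's main cell, had summed signals of 73183 in the olive oil array and 73290 in the fasted array over 5 measured genes, and none was at 0. The 2 measured bile duct markers had sums of 168.7 in the olive oil array and 226.5 in the fasted array, and 3 blood cell markers 9141 in the olive oil array and 9492 in the fasted array, each marker within 1.5-fold.

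After olive oil the 4 FGF receptor genes and Erbb3 had lower signals on their brightest probe sets, Fgf21 and Met differed less, and Egfr was nearly equal. A dimmer probe set of Fgfr1 and one of Fgfr3 went the other way, and a second bright probe set of Egfr was 1.91-fold higher. On their brightest probe sets, 5 of 8 measured members were lower by 1.5-fold or more, 0 were higher by that size, and 3 lay in between. Over all 9209 measured genes, 10.1% were at least 1.5-fold lower and 9.44% at least 1.5-fold higher, or 12.7% and 7.6% with each array centred on its median. The members' median log2 difference (olive oil minus fasted) was -0.74, against -0.01 over all measured genes. With the mean over all probe sets of a gene, dim ones included, 3 members were lower by 1.5-fold or more and the median was -0.35, an alternative chosen after seeing the data. Of all measured genes, 9.64% were lower by that size in this setting. The members were chosen with earlier results of these data known, and these counts are a description of 2 arrays. Each of the 8 reached the filter signal on both arrays. Hgf did not pass the filter, and its difference went the other way. In bulk liver, fewer cells of a type and less RNA per cell cannot be told apart.

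**Figure D1:**
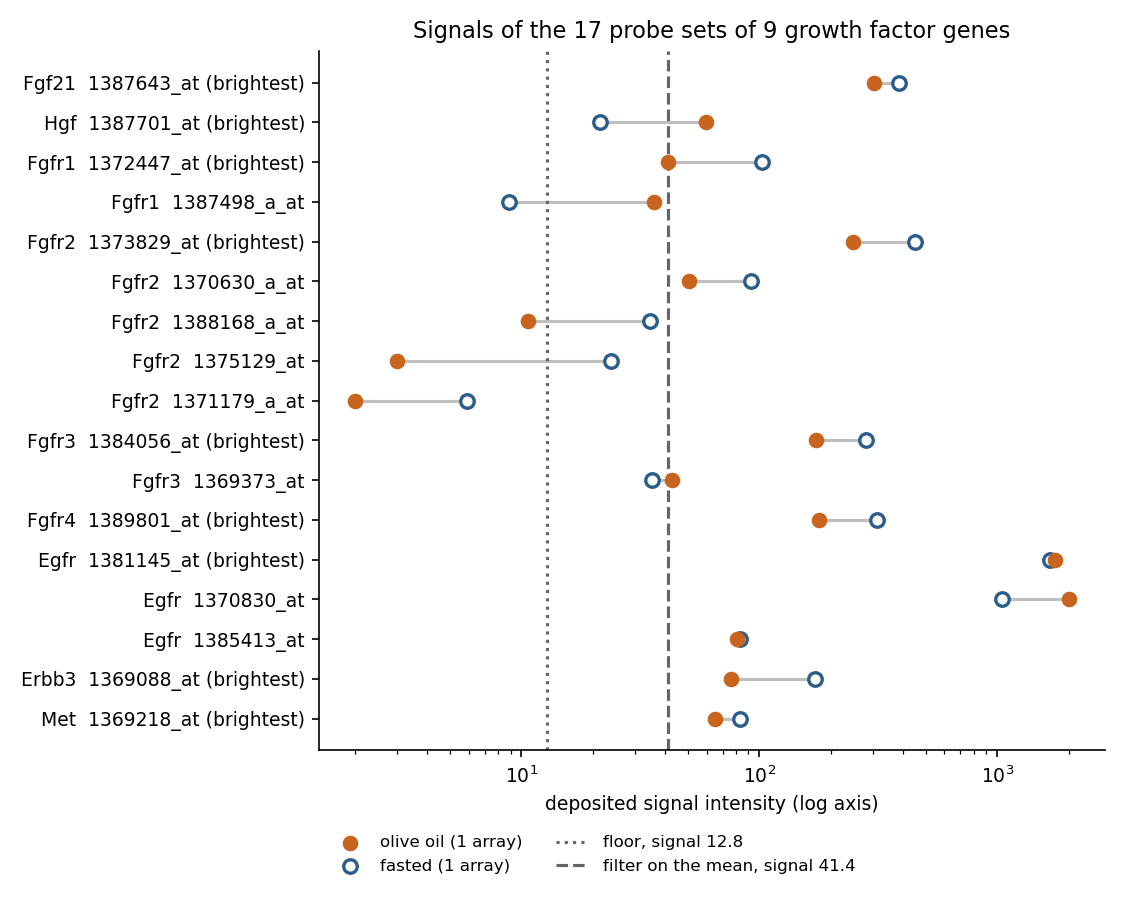
Deposited signal intensity (log axis) of the 17 probe sets of 9 genes, 1 row per probe set, with filled points for the olive oil array and open points for the fasted array. The dotted line marks the floor of 12.8 and the dashed line the filter signal of 41.4. The olive oil point lies left of the fasted point in all 5 rows of Fgfr2, of which 3 are dim. The rows of Fgfr1, Fgfr3 and Egfr differ in direction within a gene.

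Of the ligands, Fgf21 had a signal of 302.6 in the olive oil array and 387.6 in the fasted array on its single probe set. It was 1.28-fold lower after olive oil, a log2 difference of -0.36, which is short of the 1.5-fold size. The probe scatter for bright probe sets was 0.23, but it holds no error over arrays or animals. The Fgf21 transcript was thus measured on both arrays and differed less than those of the FGF receptors on their brightest probe sets. Hgf, the ligand of MET, had a signal of 59.5 in the olive oil array and 21.4 in the fasted array. The fasted value lay below the filter signal and the olive oil value above it. Its log2 difference of 1.48, or 2.78-fold higher, rests on 1 dim probe set and was 0.45 when the floor was set at the 50th percentile.

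Hgf is known as a product of stellate and endothelial cells, and their markers did not all move with it. The summed signal of 8 measured stellate cell markers was 4838 in the olive oil array and 4593 in the fasted array. Dcn, a matrix proteoglycan, was 1.79-fold higher and Lrat, which stores retinol as its ester, differed by -0.59 on the log2 scale, with the other 6 between. The summed signal of 6 measured markers of sinusoidal endothelium was 5071 in the olive oil array and 4134 in the fasted array. Among these, Lyve1 had 2741 in the olive oil array and 1798 in the fasted array, 1.52-fold higher. As the brightest of the 6 it weighs most in the sum, which therefore does not describe the markers as a set. Stab1, a scavenger receptor, was 1.75-fold lower. The 6 measured Kupffer cell markers were within 1.5-fold, with sums of 5197 in the olive oil array and 5039 in the fasted array. None of these markers was at 0, and their part in the Hgf difference was not tested.

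Among the FGF receptors, all 4 were at least 1.5-fold lower after olive oil on their brightest probe sets. Of all measured genes, 10.1% were lower by that size. With the mean over all probe sets, Fgfr2 stood at -0.81 and Fgfr4 at -0.80, but Fgfr1 at 0.10 and Fgfr3 at -0.20. Fgfr4 had a signal of 178.5 in the olive oil array and 310.8 in the fasted array, a log2 difference of -0.80 on its single probe set. Fgfr3 had 173.6 in the olive oil array and 280.0 in the fasted array on its brightest probe set, 1.61-fold lower. Fgfr3 is the member nearest to the 1.5-fold size from inside, and Fgf21 the nearest from outside. The second Fgfr3 probe set, below the filter, went slightly the other way, with 43.1 in the olive oil array and 35.5 in the fasted array. The mean of the 2 log2 differences of Fgfr3 was -0.20, short of the 1.5-fold size.

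The 2 measured probe sets of Fgfr2 were alike, and all 5 of its probe sets, 3 of them dim, had a lower signal in the olive oil array. The brightest had 247.7 in the olive oil array and 449.9 in the fasted array, 1.82-fold lower. The other measured one, whose suffix marks a match to several transcripts of the gene, had 50.5 in the olive oil array and 91.8 in the fasted array, with the same log2 difference of -0.86. Its other 3 probe sets were dim, with signals of 2.0 to 10.7 in the olive oil array, all under the floor, and of 5.9 to 34.8 in the fasted array. With 1 of these under the floor on both arrays too, they give no size of change.

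Fgfr1, the receptor through which FGF21 acts in other tissues, gave contrary values on its 2 probe sets. Its brightest had 41.5 in the olive oil array, at the edge of the filter signal, and 102.5 in the fasted array, 2.47-fold lower. The other, also one that matches several transcripts, had 36.2 in the olive oil array and 8.9 in the fasted array, and it did not pass the filter. The probe scatter does not cover this second probe set, since it was taken over measured probe sets only. The log2 difference was -1.30 on the brightest, and after the floor the 2 differences lay 2.80 apart on either side of 0. Their mean was 0.10, and no direction of the Fgfr1 transcript as a whole can be read from these arrays.

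Of the EGF receptor family, Egfr was bright and Erbb3 less bright but measured. Egfr had 1751 in the olive oil array and 1659 in the fasted array on its brightest probe set, a log2 difference of 0.08. A second bright probe set had 2003 in the olive oil array and 1048 in the fasted array, 1.91-fold higher. The third, with 80.3 in the olive oil array and 82.7 in the fasted array, was nearly equal. The highest and the lowest difference lay 0.98 apart, so the arrays give a range for Egfr and no single size. The mean over its 3 probe sets was 0.32.

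Erbb3 had 76.2 in the olive oil array and 170.9 in the fasted array, 2.24-fold lower, a log2 difference of -1.17 on its single probe set. At this brightness the pooled probe scatter was 0.44. ERBB3 signals only with a partner receptor, EGFR among them, and the genes of the other partners, Erbb2 and Erbb4, were dim, with signals of 2.0 and 3.9 in the olive oil array and 3.4 and 2.4 in the fasted array, all under the floor. Met had 65.4 in the olive oil array and 83.3 in the fasted array on its single probe set. Its log2 difference of -0.35, close to that of Fgf21, was smaller in size than the probe scatter of 0.44 for the dimmer measured probe sets. On their brightest probe sets Erbb3 and Fgfr1 were at least 2-fold lower, a size that 2.92% of all measured genes reached in that direction, and the second Fgfr1 probe set went the other way.

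**Figure D2:**
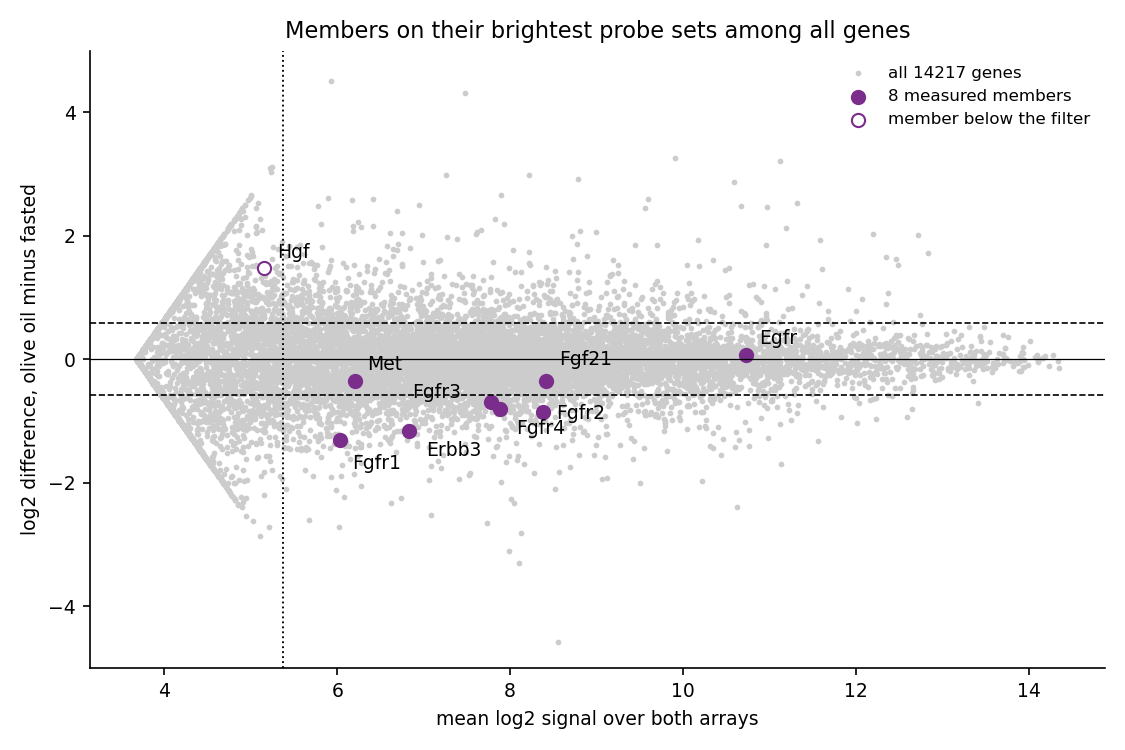
Log2 difference (olive oil minus fasted) against mean log2 signal over both arrays for 14217 genes on their brightest probe sets (grey), with 8 measured members filled and Hgf open. Dashed lines mark 1.5-fold and the dotted line the filter. Fgfr1 to Fgfr4 and Erbb3 lie below the lower dashed line, at -0.69 to -1.30, and Egfr lies near 0. A dimmer probe set of Fgfr1 and one of Fgfr3, not drawn, went the other way. A second bright probe set of Egfr, also not drawn, was 1.91-fold higher.

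Differences of this size were more frequent among dimmer genes. Fgfr2, Fgfr3, Fgfr4, Fgf21 and Egfr were above the 75th percentile of signal, where 7.43% of 5505 genes were at least 1.5-fold lower. Of these 5 members, 3 were. Fgfr1, Erbb3 and Met lay between the median and the 75th percentile, where 14.1% of 3704 genes were at least 1.5-fold lower. By probe set, 11 of the 17 were measured, of which 6 were lower by 1.5-fold or more, 1 was higher by that size and 4 lay in between. Of 12201 measured probe sets of named genes, 10.3% were at least 1.5-fold lower and 10.2% at least 1.5-fold higher.

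The sequence before the annotated start is shown for Fgfr2, Fgfr3 and Fgfr4, which were lower together on bright probe sets, for Egfr, which was not lower on its brightest probe set, and for the ligand gene Fgf21. The RefSeq promoter table of the GRCr8 build held 8 of the 10 genes. The 250 bases before the start lie at chr1:105221377-105221626 on the minus strand for Fgf21, at chr1:194280915-194281164 on the minus strand for Fgfr2 and at chr14:81227210-81227459 on the minus strand for Fgfr3. They lie at chr17:9481390-9481639 on the minus strand for Fgfr4 and at chr14:95378376-95378625 on the plus strand for Egfr. Each is written 5′ to 3′ on the strand of its gene, and capitals mark matches to a motif on either strand.
Fgf21: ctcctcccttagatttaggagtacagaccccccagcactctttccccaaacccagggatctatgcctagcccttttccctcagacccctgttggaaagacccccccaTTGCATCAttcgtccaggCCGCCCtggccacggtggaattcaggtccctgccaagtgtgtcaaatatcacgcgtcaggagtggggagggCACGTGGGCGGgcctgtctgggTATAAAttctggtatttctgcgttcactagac
Fgfr2: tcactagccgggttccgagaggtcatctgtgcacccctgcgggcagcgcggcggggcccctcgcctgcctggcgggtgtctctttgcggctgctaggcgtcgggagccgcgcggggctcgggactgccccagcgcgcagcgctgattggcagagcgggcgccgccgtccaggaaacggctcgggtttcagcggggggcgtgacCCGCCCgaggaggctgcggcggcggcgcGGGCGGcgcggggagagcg
Fgfr3: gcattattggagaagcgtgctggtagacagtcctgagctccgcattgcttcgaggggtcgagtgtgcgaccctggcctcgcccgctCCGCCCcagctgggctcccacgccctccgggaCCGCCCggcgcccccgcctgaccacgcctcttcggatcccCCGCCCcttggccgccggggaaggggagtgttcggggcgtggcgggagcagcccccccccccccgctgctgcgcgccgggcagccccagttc
Fgfr4: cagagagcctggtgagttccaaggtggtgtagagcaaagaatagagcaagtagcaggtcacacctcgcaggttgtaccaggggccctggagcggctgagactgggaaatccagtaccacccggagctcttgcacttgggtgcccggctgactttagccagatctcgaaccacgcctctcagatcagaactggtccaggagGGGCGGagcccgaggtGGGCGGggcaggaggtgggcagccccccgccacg
Egfr: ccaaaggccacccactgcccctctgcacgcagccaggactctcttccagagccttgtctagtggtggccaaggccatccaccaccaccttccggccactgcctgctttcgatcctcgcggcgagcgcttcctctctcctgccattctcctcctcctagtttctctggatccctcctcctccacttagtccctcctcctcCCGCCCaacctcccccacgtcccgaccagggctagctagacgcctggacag

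Motifs were searched by their letters on both strands. All 5 windows held the GC box, GGGCGG, bound by SP1-like factors, which occurred in 30.5% of the 33469 windows of the table. Their GC content was 56.4% to 76.8%, against a median of 51.2% in the table. The Fgf21 window alone among the 5 held the TATA box, TATAAA, which was in 12.9% of all windows, and the E-box, CACGTG, in 5.59%. It also held the element bound by ATF4 with C/EBP factors, TGATGCAA, which was in 0.693% of all windows and lay on the minus strand 143 to 136 bases before the start. The E-box and the second GC box of Fgf21 overlap by 1 base. The cyclic AMP response element, TGACGTCA, found in 1.59% of all windows, and the PPAR response element, a direct repeat of AGGTCA with 1 base between, found in 0.0508%, were in none of the 5. A match describes these letters only, and none was tested for binding here.

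Of factors known to control Fgf21, those that were measured went both ways. Ppara, the fatty acid sensor that induces Fgf21 in fasting, was dim, with 35.8 in the olive oil array and 36.6 in the fasted array. Its partner Creb3l3 had 5260 in the olive oil array and 5195 in the fasted array, a log2 difference of 0.02. Atf4, of the amino acid response, had 2503 in the olive oil array and 1825 in the fasted array, a difference of 0.46. In the list of Fgf21 regulators and PPAR-alpha targets, 5 of 21 measured genes were higher by 1.5-fold or more and 4 lower by that size. The other 12 lay in between, and the list median was 0.02. Over all measured genes, 9.44% were higher and 10.1% lower by that size. Asns, an ATF4 target that makes asparagine, had 72.4 in the olive oil array and 29.7 in the fasted array, 2.44-fold higher. Ppargc1a, a coactivator of fasting genes, was 4.69-fold higher. Both Asns and Ppargc1a lay below the filter signal in the fasted array and passed the filter through the olive oil array. Nr4a1, an orphan nuclear receptor, was 2.03-fold lower and Ehhadh, a peroxisomal oxidation enzyme, 1.97-fold lower. Further genes of the list also differed in direction, with Acot1 1.96-fold lower and Pdk4 1.72-fold higher. A second probe set of Pdk4 had a log2 difference of 0.88.

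Of the partners of FGF receptors, no other FGF ligand was measured. None of 21 other Fgf genes with a probe set passed the filter, and 11 were under the floor on both arrays. Their highest signal was 47.9 in the olive oil array and 24.7 in the fasted array. Heparan sulfate proteoglycans, which hold FGFs and HGF at the cell surface, were measured and split. Sdc4 had 7653 in the olive oil array and 3650 in the fasted array, 2.10-fold higher on its single measured probe set. Sdc1, which also takes up lipoprotein remnants, had 673.8 in the olive oil array and 1126 in the fasted array, 1.67-fold lower, with -0.60 on the log2 scale on a second probe set against -0.74 on the first. The list of FGF ligands and co-receptors had 5 measured genes, of which Sdc4 and Sdc1 alone passed the 1.5-fold size, and its median was 0.36. Of all measured genes, 9.44% were higher and 10.1% lower by that size.

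Ligands of EGFR were mostly dim. Of the ERBB list 3 genes were measured, 1 at least 1.5-fold lower and 2 between. The share of all measured genes at least 1.5-fold lower was 10.1%. Tgfa, a ligand of EGFR, had 148.4 in the olive oil array and 244.6 in the fasted array, 1.65-fold lower, but another measured probe set gave a log2 difference of -0.12. The list median was -0.23. Beside the Hgf difference given above, all 6 measured genes of HGF activation and the related MST1 branch were within 1.5-fold, between -0.27 and -0.03, with a median of -0.13. This list holds the HGF-activating proteases Hgfac and Hpn, whose signals were 1391 and 2583 in the olive oil array and 1667 and 2714 in the fasted array.

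Other receptor tyrosine kinase genes were set beside the FGF receptors, and the difference between the 2 sets was not tested. Of 17 measured genes of that list, 0 were lower by 1.5-fold or more, 1 was higher by that size and 16 lay in between. Over all measured genes, 10.1% were lower and 9.44% higher by that size. By direction alone, 8 of the 17 were lower and 9 higher, and the list median was 0.02. Nearest to 1.5-fold on the lower side were Kdr, at -0.54, and Igf1r, at -0.51 and under the filter signal in the olive oil array. The gene past 1.5-fold was Epha2, a receptor of ephrins, with 254.1 in the olive oil array and 150.4 in the fasted array. Insr, the insulin receptor gene, differed by -0.26 on its brightest probe set and by -1.03 on another.

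**Figure D3:**
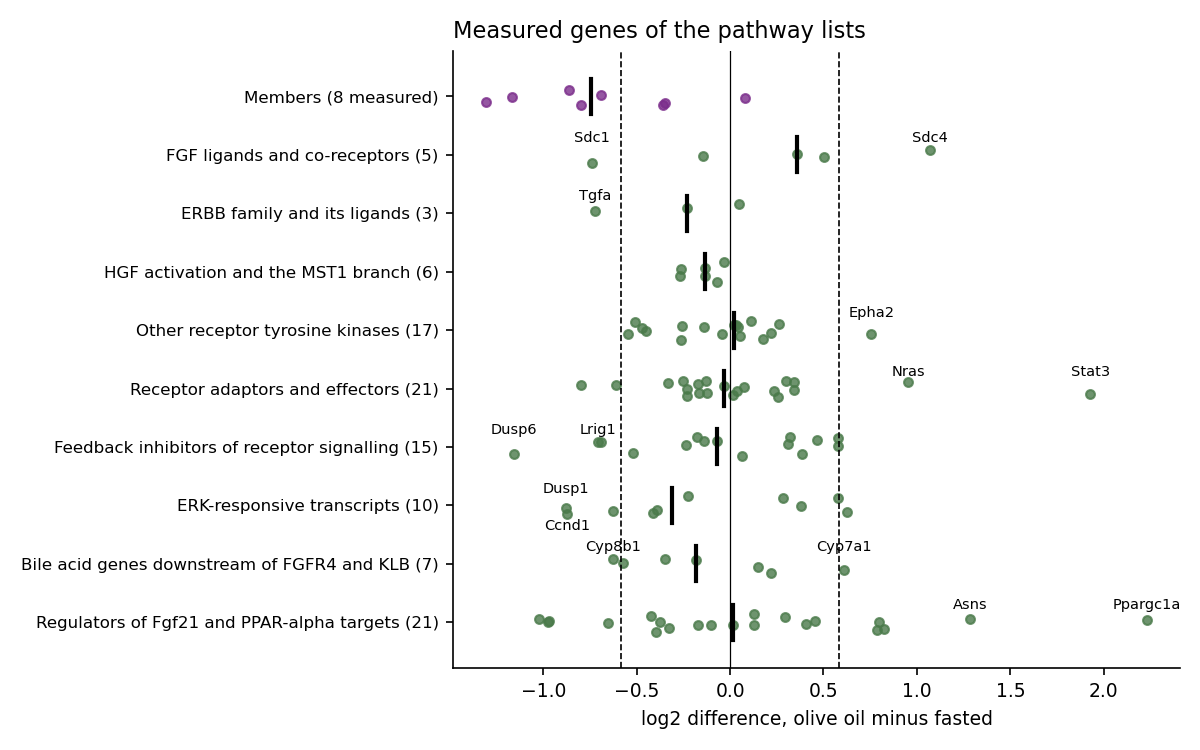
Log2 differences (olive oil minus fasted) of measured genes in 9 pathway lists, 1 point per gene on its brightest probe set, with the 8 measured members in the top row. Black bars are medians, dashed lines 1.5-fold, and up to 2 genes of largest size at least 1.5-fold apart are named per list. The members' median lies at -0.74, and the medians of the other lists lie between -0.31 and 0.36.

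Genes that act behind the receptors went both ways. Of 21 measured adaptors and effectors, 2 were higher by 1.5-fold or more, 2 were lower by that size and 17 lay in between. These counts are near the shares over all measured genes, 9.44% higher and 10.1% lower. The list median was -0.03. Gab1, the docking protein of MET and EGFR, had 109.9 in the olive oil array and 191.4 in the fasted array, 1.74-fold lower, and the adaptor gene Crkl was 1.53-fold lower. Stat3, a transcription factor of cytokine receptors that EGFR and MET also activate, had 2254 in the olive oil array and 592.6 in the fasted array, 3.80-fold higher. Its second measured probe set had a log2 difference of 1.88, close to 1.93 on the first. Nras, a RAS protein, was 1.94-fold higher on its brightest probe set and 0.19 on the log2 scale on another. Ptpn11, counted in between with a log2 difference of 0.26, had 0.96 on a second measured probe set.

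Among feedback inhibitors of receptor signalling, 3 of 15 measured genes were lower by 1.5-fold or more and 0 higher by that size. The list median was -0.07, and 10.1% of all measured genes were lower and 9.44% higher by that size. Dusp6, the phosphatase that shuts off ERK and is itself induced by FGF signalling, had 588.2 in the olive oil array and 1313 in the fasted array, 2.23-fold lower. Its 3 measured probe sets ranged from -1.30 to -1.06 on the log2 scale. Dusp5, a nuclear ERK phosphatase, was 1.62-fold lower and Lrig1, which promotes loss of ERBB receptors from the cell, 1.63-fold lower. Spry4, an inhibitor that FGF signalling also induces, had 66.9 in the olive oil array and 44.9 in the fasted array, 1.49-fold higher and just short of the 1.5-fold size. Ptpn1, a phosphatase that acts on the insulin receptor and EGFR, was also just short of it, with a log2 difference of 0.58, and had 1.18 on a second measured probe set. Ptprj, a receptor phosphatase, had log2 differences of 0.38 on the brightest of its probe sets and 0.87 on the second. Neither second value enters the count, which takes the brightest probe set of each gene.

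Of 10 measured ERK-responsive transcripts, 3 were lower by 1.5-fold or more and 1 higher by that size, and the list median was -0.31. The shares over all measured genes were 10.1% lower and 9.44% higher. Ccnd1, cyclin D1, had 382.8 in the olive oil array and 701.6 in the fasted array, 1.83-fold lower, with -1.07 and -1.03 on 2 further probe sets. Dusp1, a stress-induced phosphatase, was 1.84-fold lower and the early response gene Ier3 1.54-fold lower. The ETS factor gene Etv1 was 1.55-fold higher, with signals of 69.1 in the olive oil array and 44.7 in the fasted array, near the filter signal.

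Bile acid genes, of which Cyp7a1 and Cyp8b1 are known targets of FGFR4 and beta-klotho, were split beside the lower Fgfr4 signal. Of 7 measured genes, Cyp7a1 was higher and Cyp8b1 lower past the 1.5-fold size, as were 9.44% and 10.1% of all measured genes. The list median, which also covers bile acid genes that are not such targets, was -0.18. Cyp7a1, the rate-limiting enzyme that FGFR4 signalling represses, had 310.8 in the olive oil array and 203.5 in the fasted array, 1.53-fold higher. Cyp8b1, the sterol 12-alpha-hydroxylase, which FGFR4 signalling also represses, had 3878 in the olive oil array and 5979 in the fasted array, 1.54-fold lower. Both sizes lay just past 1.5-fold.

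The direction of the measured members was the same under 9 other settings, none of which used a dim probe set of a gene with a brighter one. Several of these settings left the members' differences unchanged by construction. With the mean over all probe sets, the setting chosen after seeing the data, Fgfr1 stood at 0.10 in place of -1.30, and Fgfr3 at -0.20 in place of -0.69. Fgfr2 stood at -0.81 and Egfr at 0.32, while Fgf21, Fgfr4, Erbb3 and Met, with 1 probe set each, could not change.

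**Figure D4:**
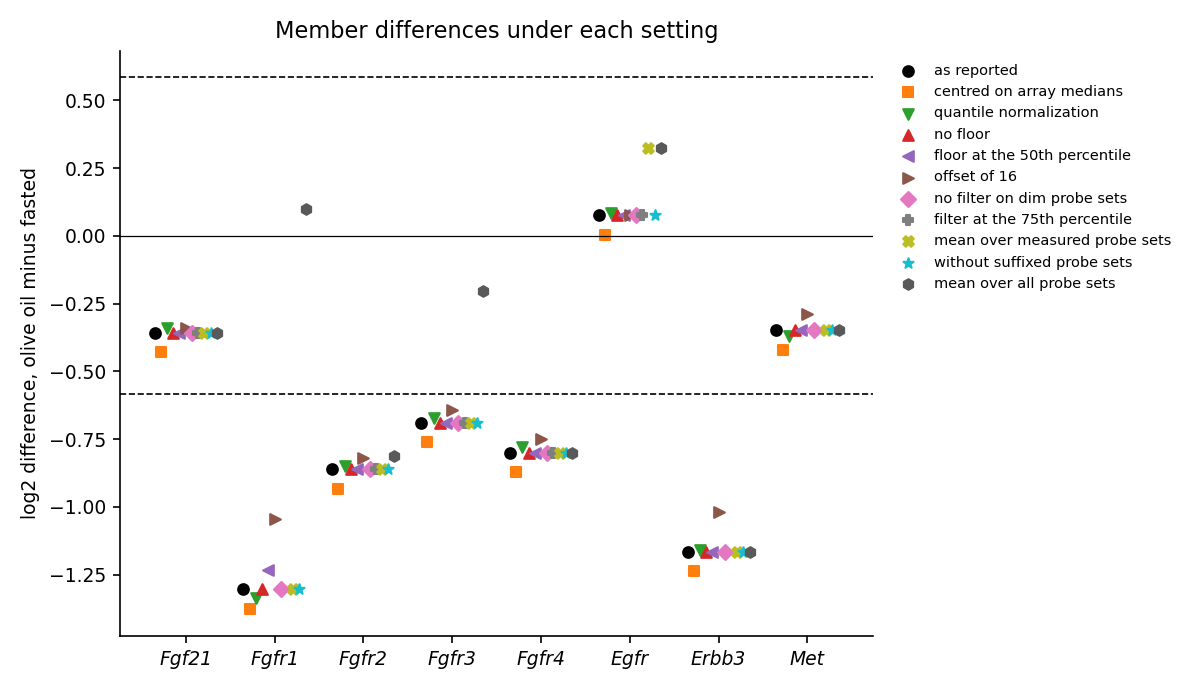
Log2 difference (olive oil minus fasted) of the 8 measured members as reported and under 10 other processing settings, 1 symbol each, with dashed lines at 1.5-fold. Fgfr2 and Fgfr4 lie between -0.93 and -0.75 in all settings, while with the mean over all probe sets Fgfr1 lies at 0.10 and Fgfr3 at -0.20. Fgfr1, Erbb3 and Met have no value with the filter at the 75th percentile.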

How the data were processed

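Liver RNA of 2 groups was measured on 1 Affymetrix array each, grouped by the samples' titles. The values deposited by the authors are linear signal intensities, 1 for each probe set on each array. The submitters' processing notes name Affymetrix Expression Console, with its version and algorithm not given in the sources used here. Without the 2% brightest and 2% dimmest probe sets, the mean signal was 200.0 in the olive oil array and 199.7 in the fasted array, as after a scaling to a common level. Such a scaling takes the bulk of transcripts as equal, and the values carry no detection call.

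From the 31042 probe sets left after 57 controls, signals under the 25th percentile, 12.8, were set to it before taking log2. The brightest probe set stood for its gene, which counted as measured from the median of all mean log2 signals (9209 of 14217 genes). Symbols came from the platform annotation, which can be old, updated by gene ID through the RefSeq table of GRCr8. It held the gene ID of 20758 of the 20826 probe sets with 1 gene. Probe sets with several genes (436) or none listed (9780) named no gene. Single arrays allow no test, and a size of 1.5-fold took its place.

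The members and the 9 pathway and 6 marker lists were chosen with earlier results of these data known. Of 195 pathway entries, 172 matched a gene, 105 were measured and 23 were not used here. The text names all members, up to 4 genes of largest size past 1.5-fold per list, and genes that the background needs. Spry4, Ptpn1, Ptprj, Ptpn11, Insr, Hgfac, Hpn, Kdr, Igf1r, Pdk4 and Acot1 were named after their values were seen. With 2 arrays no gene was named for a pattern like a member's. Functions were tested on simulated data. Python 3.11.15, numpy 2.4.6, pandas 2.3.3 and matplotlib 3.10.9 were used.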

Additional observations from a re-analysis of the deposited data

How the results depend on the processing

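The size and direction of the 8 measured members were recomputed under 9 other settings and under 1 more, the mean over all probe sets of a gene, which was chosen after seeing the data. Of 77 values, 75 kept their sign and moved by less than the pooled probe scatter of 0.35. The other 2 came with the mean over all probe sets, Fgfr1 at 0.10, with the sign turned, and Fgfr3 at -0.20. None of the other 9 settings used the dim probe sets of these 2 genes. Many of the 77 values could not move. Without the floor, without the filter, with the higher filter or without suffixed probe sets, each member with a value kept it exactly. Centring shifted every member alike, by -0.07. The tally is therefore largely fixed by the choice of settings and is no measure of robustness. The members' median was -0.82 with each array centred on its median and -0.35 with the mean over all probe sets. The number of members at least 1.5-fold lower was 5 under 8 of these settings, where 8.27% to 12.7% of all measured genes were lower by that size. It was 3 with the mean over all probe sets, 3 with the filter at the 75th percentile, where 5 members were measured because Fgfr1, Erbb3 and Met were left out by construction, and 2 at a 2-fold size. The shares of all measured genes in these settings were 9.64%, 7.43% and 2.92%, in the same order. The number at least 1.5-fold higher was 0 except with no filter on dim probe sets, where it was 1 of 9, Hgf, with a log2 difference of 1.48. Of all genes, 12.8% were higher by that size in that setting. Egfr ranged from 0.0046 with centring to 0.32 with the mean over its probe sets. Centring moved the balance of all measured genes at least 1.5-fold apart to 1168 lower and 700 higher, against 931 lower and 869 higher as reported. No paired analysis was possible because each group was a single array. Signal over background limits the 6 probe sets below the filter, which belong to Hgf, Fgfr1, Fgfr2 and Fgfr3, and 5 of the 9 genes rest on 1 probe set.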
